A study of Mus musculus with 21 samples.

Results

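The data compared here are 6 of 21 libraries of total RNA from epididymal white adipose tissue, the visceral fat pad beside the epididymis, all 6 from germ-free mice. The members were chosen by 2 labels, gut microbiome status and zeitgeber time (ZT, hours after the lights come on). Germ-free morning holds 3 libraries, 1 at ZT02 and 2 at ZT06, and germ-free late night holds 3 libraries, 1 at ZT18 and 2 at ZT22. The animals of both groups were male C57BL/6j mice of 15 to 16 weeks without a gut microbiota, feeding ad libitum, with no transgene, deletion or drug named in the labels. The study sampled the fat every 4 h, from germ-free mice (GF, 9 libraries) and from conventionally raised mice of the same strain, sex and age (convR, 12 libraries). The other 3 germ-free libraries, at ZT10 and ZT14, belong to neither window, and 4 morning and 4 late-night convR libraries served to test whether the change differed. All 21 libraries entered 1 fit, so those outside the 6 also shaped the normalization, the filter and the estimate of spread. Nothing in the labels says that 2 libraries of a group came from separate animals, so p-values measure the spread between libraries, which may be technical. Each window joins 2 time points, so that spread, estimated over all 21 libraries, also holds any change between the time points.

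Fat cells keep their own circadian clock. In it the activators BMAL1 (gene Arntl) and CLOCK or NPAS2 switch on the Period, Cryptochrome and Nr1d genes through E-box sequences, PER and CRY proteins shut the activators off again, and the NR1D receptors repress Arntl and Cry1. Mice eat mostly in the dark, so late night follows hours of feeding and the morning is a resting phase. In white fat, feeding and insulin are known to raise the synthesis of fatty acids, sterols and glycogen, while rest and fasting are known to favour lipolysis and the re-esterification of fatty acids on glycerol made through PCK1.

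Sequencing depth was 31084358 to 48348181 counts per library in the 6 germ-free libraries. A single count was therefore worth 0.0207 to 0.0410 CPM (read counts scaled to a common library size) over all 21 libraries. The fat cell marker Adipoq stood at 2647 to 3284 CPM in the morning and 2289 to 3134 CPM late at night, and Ucp1, the marker of brown fat, was at or below 0.0797 CPM in each library. Tissue from beside the depot was present unevenly, with genes of the epididymis and testis high in both ZT22 libraries. The summed CPM of 24 genes of ciliated duct epithelium was 571 in 1 ZT06 library and 1157 in 1 ZT22 library, against 35.3 to 57.6 in the other 4. Epididymis and testis genes summed to 11.7 to 90.0 CPM in the morning and to 3.64 CPM at ZT18 and 396 and 403 CPM at ZT22, where Crisp1 (393 CPM) and Rnase10 (48.6 CPM), both made by the epididymis, each led in a different ZT22 library. Of 15 male accessory gland genes Pbsn and Sbp had no read in these libraries, and of 18 pancreas genes Amy2a5, Ins1 and Ins2 had none. With 3 libraries against 3 an exact permutation test of such a measure cannot give a p below 0.1, so whether these differ between the windows cannot be settled by one. In bulk tissue, fewer cells of a type and less RNA per cell cannot be told apart.

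**Figure D1:**
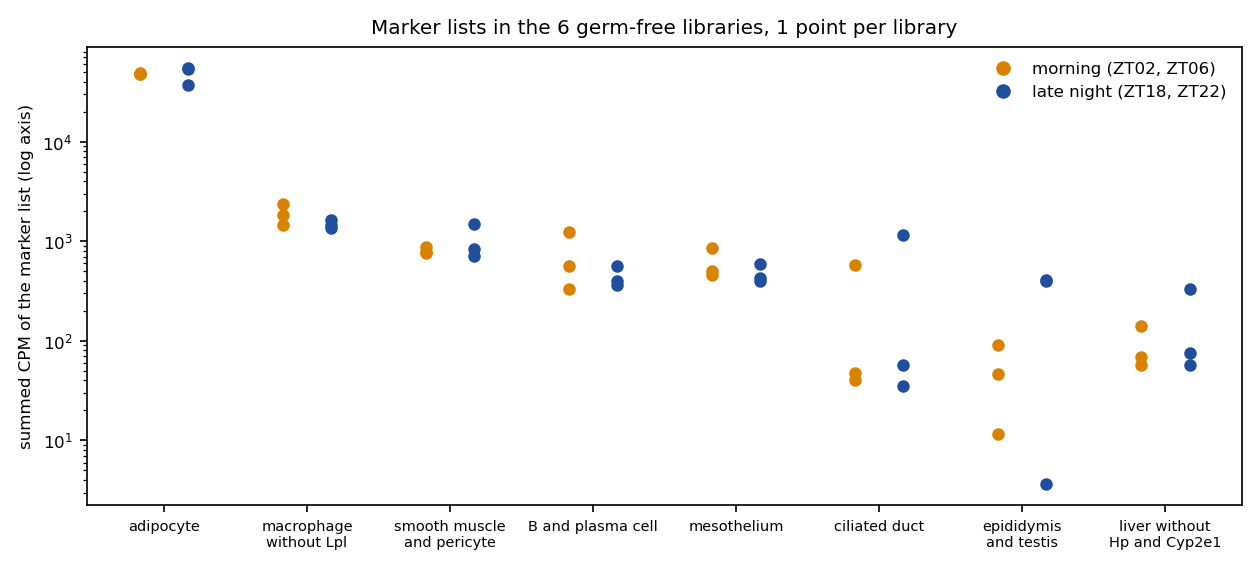
Summed CPM (log axis) of 8 marker lists in the 6 germ-free libraries, 1 point per library, morning left of late night. Fat cell markers sum to 36788 CPM in the first-numbered ZT22 library and to 47257 to 54994 CPM in the others. Duct markers stand high in 1 library of each window (571 and 1157 CPM), the second being that same ZT22 library.

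Of 20101 genes tested, 15 differed between the windows (0.0746%), 11 higher in the morning (0.0547%) and 4 lower (0.0199%), each with an adjusted p of 0.0453 (edgeR quasi-likelihood test, Benjamini-Hochberg). The genes that fell include Cry1, a part of the circadian clock, and Adh1, an alcohol and retinol dehydrogenase abundant in fat cells. Those that rose include Rasl11b, which encodes a small RAS-like GTPase, Eepd1, whose product promotes cholesterol efflux in macrophages, and Phldb1, whose product enhances insulin signalling to AKT in cultured fat cells. At an unadjusted p under 0.05 there were 2128 genes (10.6%). In 1207 genes (6%) every morning library lay above every late-night library, and in 964 (4.8%) every one lay below.

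Cry1, a repressor of the clock on chromosome 10 (GRCm38, 85131700 to 85185064, minus strand), had 13.2 CPM at ZT02 and 7.99 and 11.2 CPM at ZT06, against 40.7 CPM at ZT18 and 30.2 and 45.4 CPM at ZT22. All 3 morning libraries were low and the windows did not overlap, with a log2 fold change of -1.84 ± 0.33 (SE). Adh1 (chromosome 3, 138260991 to 138290698, plus strand) had 143 CPM at ZT02 and 155 and 172 CPM at ZT06, against 343 CPM at ZT18 and 268 and 317 CPM at ZT22. Every morning library was well below the lowest late-night one, and the log2 fold change was -0.98 ± 0.18 (SE).

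Rasl11b (chromosome 5, 74195286 to 74199481, plus strand) had 11.2 CPM at ZT02 and 11.4 and 10.9 CPM at ZT06, against 4.04 CPM at ZT18 and 4.71 and 3.43 CPM at ZT22. The 3 morning libraries lay within 1 CPM of each other, and the log2 fold change was 1.46 ± 0.24 (SE). Eepd1 (chromosome 9, 25481547 to 25604110, plus strand) had 338 CPM at ZT02 and 433 and 367 CPM at ZT06, against 216 CPM at ZT18 and 190 and 128 CPM at ZT22, a log2 fold change of 1.09 ± 0.20 (SE). Phldb1 (chromosome 9, 44686304 to 44735198, minus strand) had 290 CPM at ZT02 and 318 and 343 CPM at ZT06, against 240 CPM at ZT18 and 188 and 170 CPM at ZT22, a log2 fold change of 0.67 ± 0.12 (SE). Rbms1, an RNA-binding protein gene on chromosome 2 (60750193 to 60963192, minus strand), had 136 CPM at ZT02 and 129 and 134 CPM at ZT06, against 99.3 CPM at ZT18 and 99.5 and 103 CPM at ZT22. Its change was small, 0.40 ± 0.06 (SE) on the log2 scale, with tight libraries in both windows. Kctd15, a gene at a locus linked to human obesity (log2 fold change 0.79), Lix1l, an RNA-binding protein gene (0.54), and Itprip, which encodes an interactor of the inositol trisphosphate receptor (0.64), also rose, and in each the windows did not overlap.

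Another 5 genes past the threshold are named here after their values were seen. Gbp11, a guanylate-binding protein gene annotated as a polymorphic pseudogene, had a log2 fold change of 2.16, but its family has near-identical copies, so its counts are uncertain. B230312A22Rik (0.39) and BC029214 (-0.48) are older symbols that the annotation gives as Fam214b and Paxx, the second a factor of DNA end joining. Gm17167 and RP23-388P16.2 lie over each other on chromosome 4 and had the same values, 0.159 CPM at ZT02 and 0.257 and 0.186 CPM at ZT06, against 0.0265 CPM at ZT18 and 0 CPM in both ZT22 libraries. They hold a few reads each and cannot be counted as separate genes.

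These 15 calls rest on a thin margin. No gene passed in the fits of the 9 or of the 6 germ-free libraries alone, nor without the first-numbered ZT06 library (replicate 1 in the labels) or the second-numbered ZT22 library. Without the first-numbered ZT22 library 16 genes were higher and 57 lower, without the ZT02 library 13 and 10, without the ZT18 library 17 and 5, and without the second-numbered ZT06 library 1 and 1. DESeq2 called 146 higher and 101 lower (1.89% of 13073 genes with an adjusted p, either way), among them each of the 13 of these 15 to which it gave one.

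**Figure D2:**
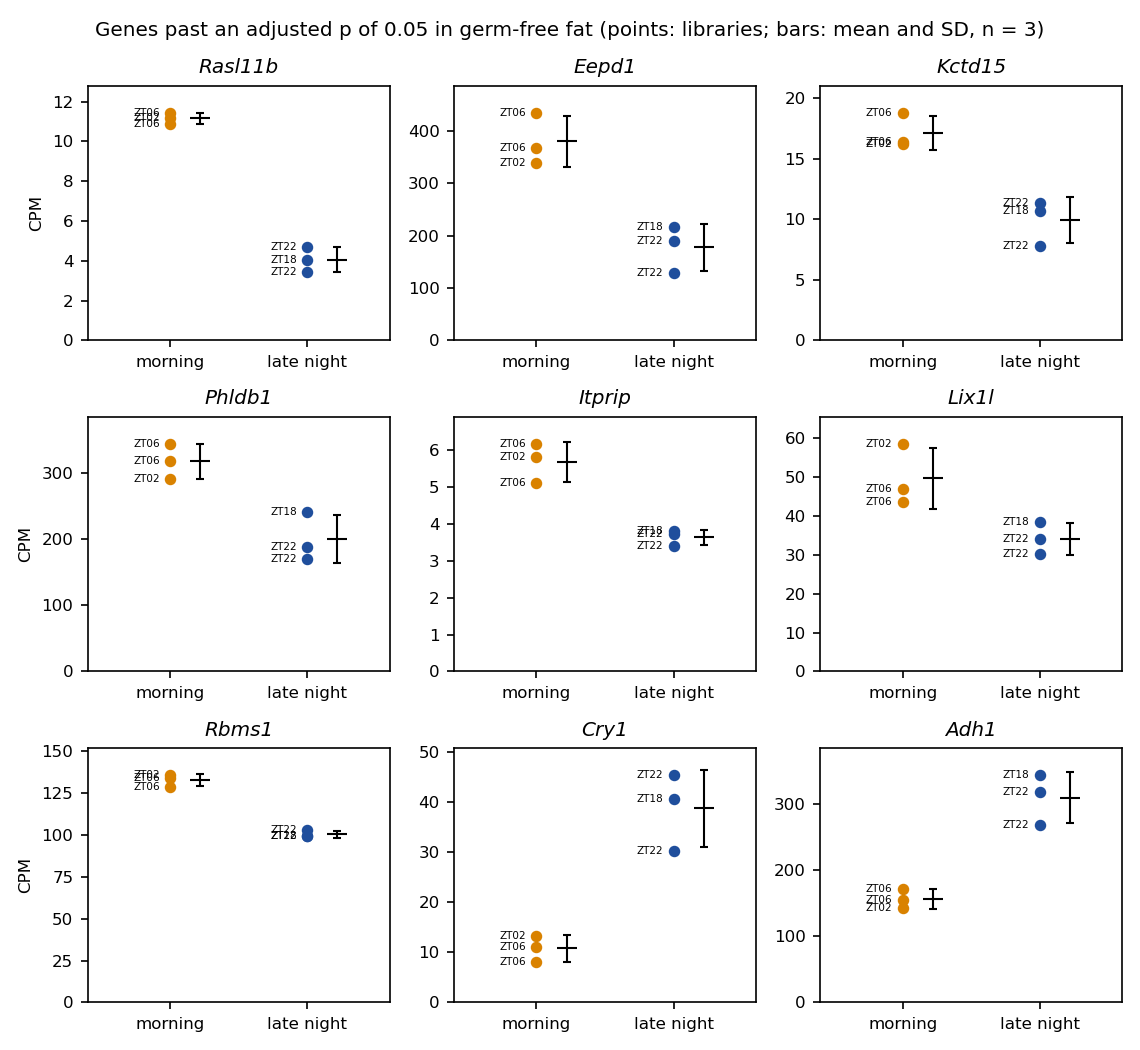
CPM in the 3 morning (left) and 3 late-night (right) germ-free libraries for 9 genes past an adjusted p of 0.05, 1 labelled point per library, with the mean and SD beside them (n = 3). In each panel the windows do not overlap: 7 genes were higher and Cry1 and Adh1 lower in the morning.

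Among the 12 clock activators and repressors tested, 2 fell with edgeR, Cry1 among them, none rose and 10 did not pass (4 called with DESeq2). The windows did not overlap in 4 of 12, 2 above (Nr1d1 and Nr1d2) and 2 below, and the median log2 fold change was -0.18, beside -0.02 over all genes. Over all genes 6% lay wholly above, 4.8% wholly below and 10.6% had an unadjusted p under 0.05. These shares stand beside the counts of each list. Nr1d1, the repressor REV-ERB alpha, had 48.7 CPM at ZT02 and 86.0 and 96.1 CPM at ZT06, against 4.57 CPM at ZT18 and 7.98 and 10.004 CPM at ZT22. Its log2 fold change of 3.35 ± 0.75 (SE) was the highest of the 12 and did not pass with edgeR (adjusted p = 0.157, and 0.00185 with DESeq2). Nr1d2, which encodes REV-ERB beta, had 45.0 CPM at ZT02 and 145 and 182 CPM at ZT06, against 34.7 CPM at ZT18 and 42.4 and 22.5 CPM at ZT22 (1.90 ± 0.39 SE, edgeR adjusted p = 0.108). The ZT02 library of Nr1d2 sat just above the late-night values, far below both ZT06 libraries.

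Arntl and Npas2, the activators, showed the same split within the morning. Arntl had 44.8 CPM at ZT02 and 5.96 and 6.05 CPM at ZT06, against 42.6 CPM at ZT18 and 42.8 and 57.6 CPM at ZT22. The ZT02 library lay among the late-night ones, so the windows overlapped (log2 fold change -1.33 ± 0.57 SE, edgeR adjusted p = 0.406). Npas2 had 4.68 CPM at ZT02 and 1.37 and 1.46 CPM at ZT06, against 2.36 CPM at ZT18 and 9.35 and 9.51 CPM at ZT22, and did not pass (edgeR adjusted p = 0.265). Clock, the constant partner of BMAL1, ranged from 128 to 210 CPM in the morning and from 192 to 201 CPM late at night. Per1 read 8.78 CPM at ZT02 and 28.8 and 34.8 CPM at ZT06, against 19.1 CPM at ZT18 and 20.4 and 19.3 CPM at ZT22, so that its ZT02 and ZT06 libraries lay on opposite sides of late night. Per2 read 11.2 CPM at ZT02 and 23.2 and 32.8 CPM at ZT06, against 50.2 CPM at ZT18 and 27.7 and 13.3 CPM at ZT22. Per3 read 39.9 CPM at ZT02 and 128 and 166 CPM at ZT06, against 108 CPM at ZT18 and 58.7 and 49.4 CPM at ZT22. All 3 Period genes, which encode partners of the cryptochromes, were thus low at ZT02 next to ZT06, and the direction for Per1, Per2 and Cry2 (log2 fold changes 0.30, -0.44 and -0.13) turned in at least 1 alternative setting. Rora, a nuclear receptor that activates Arntl, read 102 CPM at ZT02 and 147 and 153 CPM at ZT06, against 113 CPM at ZT18 and 107 and 112 CPM at ZT22.

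With the windows narrowed to ZT06 against ZT22, 2 libraries each, 78 genes were higher in the morning (0.388%) and 31 lower (0.154%). Of the 12 clock genes 7 passed: Nr1d1 (log2 fold change 3.34), Nr1d2 (2.34), Per3 (1.44) and Rora (0.45) were higher, and Arntl (-3.06), Npas2 (-2.73) and Cry1 (-1.98) were lower. This narrower comparison leaves out the ZT02 and ZT18 libraries, and was an alternative rather than the comparison of the windows.

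**Figure D3:**
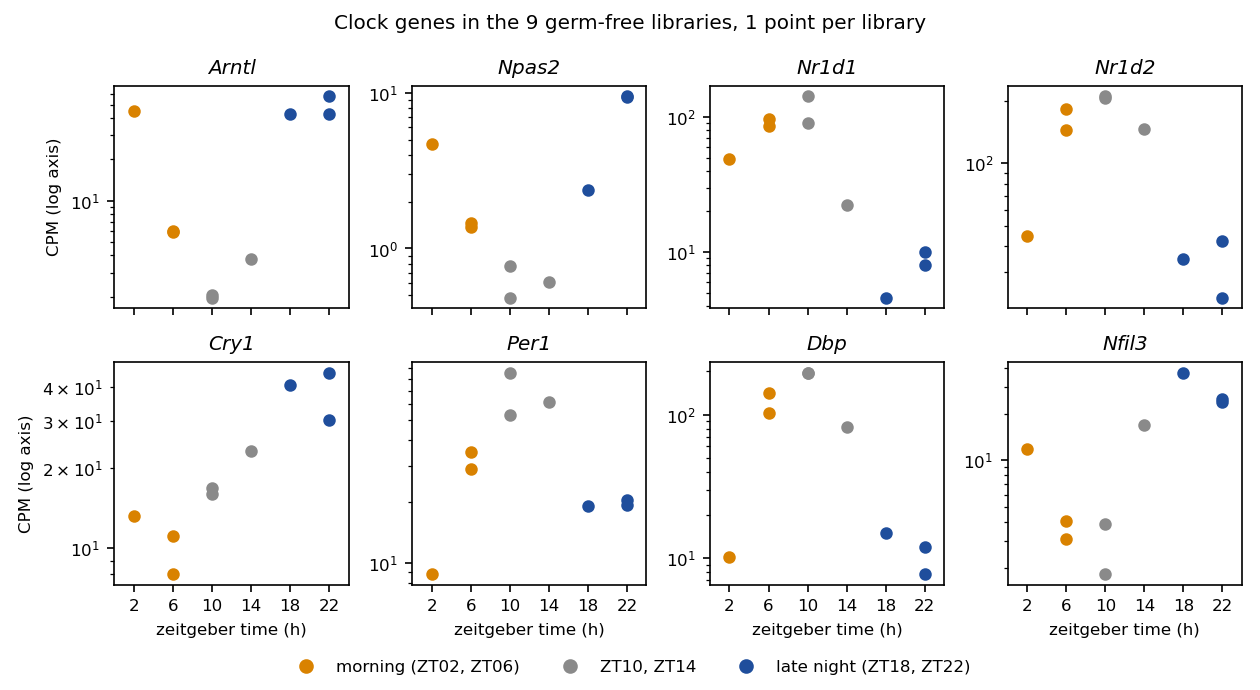
CPM (log axis) against zeitgeber time (h) for 8 clock genes in all 9 germ-free libraries, 1 point per library, with morning, ZT10 and ZT14, and late-night libraries in 3 colours. The ZT02 library of Arntl (44.8 CPM) and Dbp (10.2 CPM) lies level with late night, while Cry1 is low at both ZT02 and ZT06.

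The clock's E-box, CACGTG, reads the same on both strands. The sequences below are shown because they carry it in front of 3 genes described here: the called repressor Cry1, the clock output Ciart, and Insig1, a brake on lipid synthesis. They are the 250 bases before the start of each gene, from RefSeq (GRCm38.p6), written 5′ to 3′ on the gene's strand, with each E-box in capitals. Cry1 is at chr10:85185055-85185304 (minus strand), Ciart at chr3:95882229-95882478 (minus strand) and Insig1 at chr5:28071162-28071411 (plus strand).
Cry1: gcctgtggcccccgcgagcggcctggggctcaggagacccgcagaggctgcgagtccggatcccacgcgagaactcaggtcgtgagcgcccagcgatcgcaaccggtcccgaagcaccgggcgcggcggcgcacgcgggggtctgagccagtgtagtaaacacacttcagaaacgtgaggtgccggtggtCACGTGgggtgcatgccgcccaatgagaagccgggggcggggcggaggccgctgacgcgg
Ciart: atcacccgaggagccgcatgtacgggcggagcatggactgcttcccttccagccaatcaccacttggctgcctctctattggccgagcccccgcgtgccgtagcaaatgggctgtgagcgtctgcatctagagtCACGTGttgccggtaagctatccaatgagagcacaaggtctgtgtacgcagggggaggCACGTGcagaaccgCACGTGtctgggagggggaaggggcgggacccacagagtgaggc
Insig1: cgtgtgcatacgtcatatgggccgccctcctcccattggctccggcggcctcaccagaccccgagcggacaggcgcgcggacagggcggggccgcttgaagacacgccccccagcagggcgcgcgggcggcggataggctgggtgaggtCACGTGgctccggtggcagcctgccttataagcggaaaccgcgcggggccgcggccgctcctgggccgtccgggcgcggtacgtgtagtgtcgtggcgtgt
The E-box of Cry1 begins 60 bases before the start, that of Insig1 101 bases before it, and the 3 of Ciart 116, 58 and 44 bases before it. An E-box was found in such a window in 2 of the 10 clock genes with one (Cry1 and Per1), in 5 of 13 clock output genes and in 4 of 14 lipogenic regulators, beside 6.86% of 27025 genes. In fatty acid synthesis and in cholesterol synthesis, both described below, it was found in 3 of 15 genes each. The D-box TTANGTAA, searched on both strands, was found in 1 of the 10 clock genes (Per3), beside 2.44%. A match describes letters in this window and shows no binding.

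With edgeR none of the 15 clock output genes passed (6 at an unadjusted p under 0.05, 2 with DESeq2), and in 3 every morning library lay below late night, beside 4.8% of all genes. Dbp, which encodes the D-box activator, had 10.2 CPM at ZT02 and 103 and 142 CPM at ZT06, against 15.0 CPM at ZT18 and 12.0 and 7.69 CPM at ZT22 (log2 fold change 2.88 ± 0.66 SE, edgeR adjusted p = 0.157). Its ZT02 library was at the late-night level. Ciart, the repressor CHRONO, listed in the counts as Gm129, had 0.344 CPM at ZT02 and 6.68 and 5.76 CPM at ZT06, against 0.796 CPM at ZT18 and 0.655 and 0.602 CPM at ZT22. It followed the pattern of Dbp (2.63 ± 0.67 SE, edgeR adjusted p = 0.178). Nfil3, the D-box repressor, chosen here after its values were seen, had 11.9 CPM at ZT02 and 4.05 and 3.11 CPM at ZT06, against 37.3 CPM at ZT18 and 24.9 and 24.0 CPM at ZT22. All its morning libraries were low, with the ZT02 one between ZT06 and late night (-2.17 ± 0.76 SE, edgeR adjusted p = 0.299). Between ZT06 and ZT22 alone, 4 of the 15 passed, Dbp (3.64), Ciart (3.30) and Tef (1.33), a relative of Dbp named here because it passed, higher and Nfil3 (-2.77) lower.

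Ppp1r3b, which targets protein phosphatase 1 to glycogen and promotes its synthesis (chromosome 8, 35375739 to 35388139, plus strand), had 13.2 CPM at ZT02 and 19.8 and 14.5 CPM at ZT06, against 142 CPM at ZT18 and 63.5 and 166 CPM at ZT22. Every morning library was far below the lowest late-night library, with a log2 fold change of -2.97 ± 0.58 (SE) and an edgeR adjusted p of 0.0841, where DESeq2 gave an adjusted p of 0.000272. With edgeR none of the 22 glycogen genes passed (6 at an unadjusted p under 0.05, 1 with DESeq2). Of them 1 lay wholly above and 3 wholly below, beside 6% and 4.8% of all genes. Their median log2 fold change was -0.10 (-0.032 without the second-numbered ZT22 library), so the difference in Ppp1r3b was not matched across the list. Epm2a, which encodes the glycogen phosphatase laforin, was the gene wholly above, at 28.0 to 30.0 CPM in the morning and 23.1 to 23.8 CPM late at night.

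With edgeR none of 15 lipogenic regulators passed (7 at an unadjusted p under 0.05, 3 with DESeq2). Of them 2 lay wholly above and 3 wholly below, beside 6% and 4.8% of all genes. Thrsp, the lipogenic protein Spot 14, had 1099 CPM at ZT02 and 1319 and 1017 CPM at ZT06, against 2829 CPM at ZT18 and 1750 and 4321 CPM at ZT22 (log2 fold change -1.37 ± 0.32 SE, edgeR adjusted p = 0.157). Insig1, which holds the SREBP precursors in the endoplasmic reticulum and is itself a target of SREBP, had 390 CPM at ZT02 and 188 and 191 CPM at ZT06, against 730 CPM at ZT18 and 513 and 1196 CPM at ZT22 (-1.67 ± 0.40 SE, edgeR adjusted p = 0.165). In both genes the morning libraries were all below late night, and the second-numbered ZT22 library was the highest.

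Fatty acid synthesis (19 genes) and cholesterol synthesis (23 genes) had negative point estimates in every gene. The first list is a broad one and also holds Aacs, Fads2, Elovl5, Acot11 and Pnpla3. With edgeR none passed in either list (8 and 11 at an unadjusted p under 0.05, 3 and 3 with DESeq2). For fatty acid synthesis 4 of 19 lay wholly below late night, beside 4.8% of all genes, and the median log2 fold change was -0.84. Aacs, the acetoacetyl-CoA synthetase, had 368 CPM at ZT02 and 318 and 300 CPM at ZT06, against 762 CPM at ZT18 and 492 and 1135 CPM at ZT22 (-1.28 ± 0.29 SE, edgeR adjusted p = 0.157). Acacb, the acetyl-CoA carboxylase tied to control of fat oxidation, had 222 CPM at ZT02 and 188 and 246 CPM at ZT06, against 465 CPM at ZT18 and 282 and 655 CPM at ZT22 (-1.10 ± 0.29 SE). In both, the first-numbered ZT22 library was the late-night one nearest to the morning. Fasn and Acly, the fatty acid synthase and the ATP citrate lyase, chosen here after their values were seen, overlapped between the windows. Acly had 1246 CPM at ZT02 and 3617 and 2884 CPM at ZT06, against 2073 CPM at ZT18 and 1779 and 11190 CPM at ZT22.

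In cholesterol synthesis 7 of 23 lay wholly below late night, beside 4.8% of all genes, and the median was -0.53. Cyp51, the lanosterol demethylase, had 63.0 CPM at ZT02 and 66.3 and 69.8 CPM at ZT06, against 122 CPM at ZT18 and 91.2 and 274 CPM at ZT22 (-1.29 ± 0.34 SE, edgeR adjusted p = 0.189). The morning libraries were nearly equal and the spread lay in the late night. Fdft1, the squalene synthase, ranged from 59.98 to 69.1 CPM in the morning and from 77.4 to 121 CPM late at night, and Pmvk, the phosphomevalonate kinase, from 45.2 to 56.5 CPM in the morning and from 64.9 to 170 CPM late at night. A sterol response element, searched as TCACNCCAC on both strands, was found before 1 of 15 of these genes with a window (Hmgcs1), beside 1.22% of all.

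The late-night values of these lists were highest in 1 library. The second-numbered ZT22 library had the highest value of the 6 in 16 of 19 fatty acid synthesis genes and 18 of 23 cholesterol genes, beside 19.3% of all genes. Without it the median log2 fold change of fatty acid synthesis was -0.13 and that of cholesterol synthesis -0.33. Scd1, the stearoyl-CoA desaturase, also chosen after its values were seen, took 5.42% of that library's counts, and the most abundant gene of the other 5 took 1.91 to 3.03%. The same library had the highest sum of smooth muscle and pericyte markers (1482 CPM, against 707 to 869 CPM in the other 5) and 403 CPM of epididymis and testis genes. The part of these in the result was not tested.

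**Figure D4:**
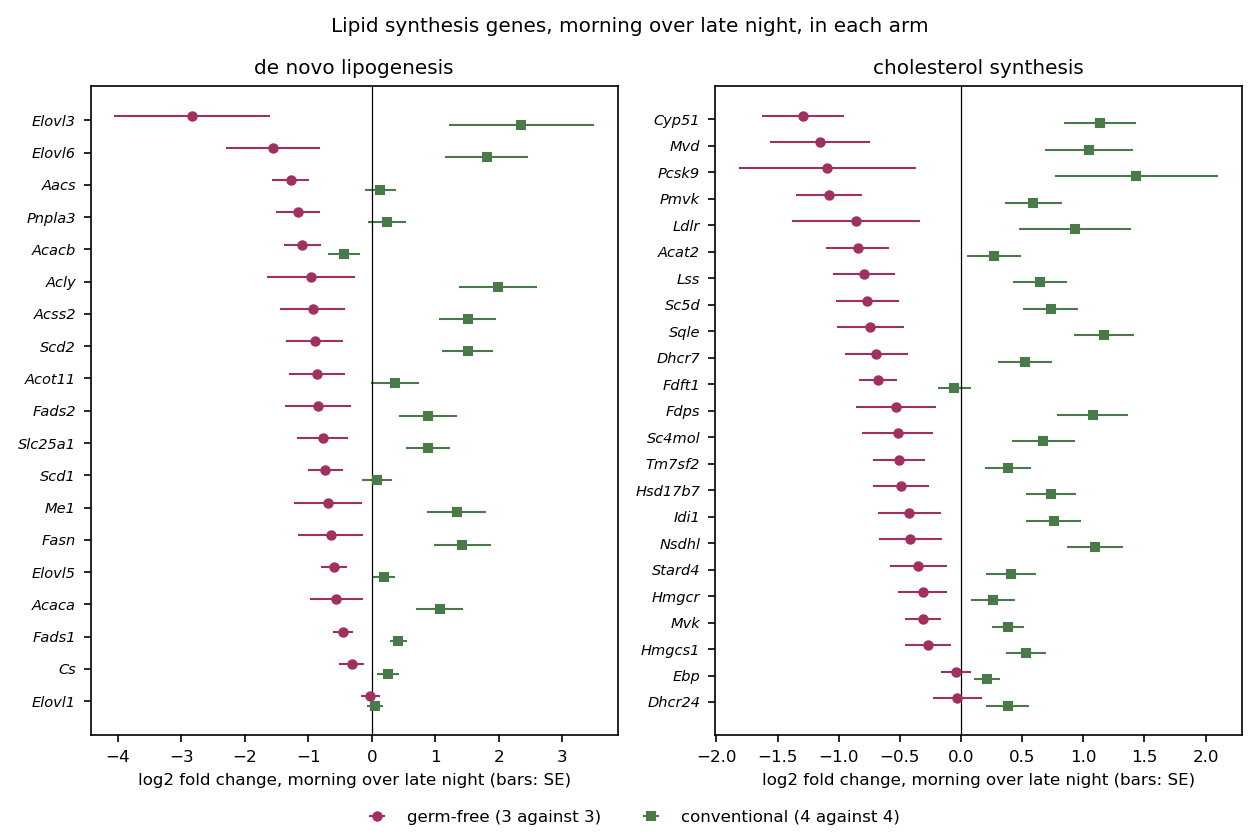
Log2 fold change, morning over late night, with SE bars, for 19 fatty acid synthesis genes (left) and 23 cholesterol synthesis genes (right), germ-free as circles (3 libraries against 3) and conventional as squares (4 against 4). All germ-free points lie below 0 (medians -0.84 and -0.53), and the conventional medians are 0.88 and 0.65. Without the second-numbered ZT22 library the germ-free medians are -0.13 and -0.33.

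Of 25 genes of glucose uptake and glycolysis none passed with edgeR or DESeq2 and 3 lay wholly below, beside 4.8% of all genes. Their median log2 fold change was -0.28 (-0.14 without the second-numbered ZT22 library). Ldhb, a lactate dehydrogenase subunit, ranged from 47.8 to 57.2 CPM in the morning and from 62.0 to 64.0 CPM late at night. The 13 genes of the pentose phosphate route and NADPH supply had a median of -0.23 (-0.11 without that library). All 20 citric acid cycle and all 26 oxidative phosphorylation genes had negative estimates (medians -0.23 and -0.26), yet in none did the windows separate and none passed with edgeR (2 and 4 at an unadjusted p under 0.05) or DESeq2. Cox5b, a subunit of cytochrome c oxidase, had 139 CPM at ZT02 and 170 and 140 CPM at ZT06, against 210 CPM at ZT18 and 150 and 248 CPM at ZT22. Its ZT22 libraries lay on both sides of the higher ZT06 library. Again 1 library led: 25 of 26 oxidative phosphorylation genes and 19 of 20 citric acid cycle genes were highest in the second-numbered ZT22 library, and 22 and 13 of them were lowest at ZT02. Without it the medians were -0.14 for oxidative phosphorylation and -0.10 for the citric acid cycle. Thermogenic genes (12 tested, 2 wholly below) had a median of -0.50, which was -0.22 without the ZT02 library. They stood at low levels: Dio2, the deiodinase that activates thyroid hormone, ranged from 0.903 to 2.88 CPM in the morning and from 1.85 to 6.91 CPM late at night. The 18 genes of branched-chain amino acid breakdown had a median of -0.17 (-0.11 without the second-numbered and -0.26 without the first-numbered ZT22 library) and no gene with separate windows.

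Some genes of fat release and re-esterification had higher values in the morning. Pck1, the enzyme of glyceroneogenesis in fat, had 1934 CPM at ZT02 and 1717 and 2159 CPM at ZT06, against 700 CPM at ZT18 and 491 and 701 CPM at ZT22. Each morning library was far above the highest late-night one, with a log2 fold change of 1.62 ± 0.48 (SE) and an edgeR adjusted p of 0.237. This was the highest estimate among the 19 genes of triglyceride assembly, of which 6 had positive and 13 negative estimates (median -0.16). Pck1 was thus not matched across that list. With edgeR none of the 26 genes of lipolysis and its control passed (7 at an unadjusted p under 0.05, 3 with DESeq2). Of them 5 lay wholly above and 1 wholly below, beside 6% and 4.8% of all genes, and the median was 0.12. The first-numbered ZT22 library was the lowest in 15 of the 26, beside 20% of all genes. The ZT02 library was the highest in 13, beside 18.8%. The median was 0.043 without the 2 libraries high in duct markers, and 0.098 without the ZT02 library. Adrb3, the β3-adrenergic receptor through which noradrenaline drives lipolysis, had 793 CPM at ZT02 and 631 and 714 CPM at ZT06, against 458 CPM at ZT18 and 377 and 403 CPM at ZT22 (0.79 ± 0.20 SE, edgeR adjusted p = 0.187). G0s2, an inhibitor of the lipase ATGL, had 197 CPM at ZT02 and 175 and 118 CPM at ZT06, against 467 CPM at ZT18 and 317 and 226 CPM at ZT22 (-1.04 ± 0.38 SE). The receptor was thus higher and the lipase inhibitor lower in all 3 morning libraries. Neither passed the threshold with edgeR (DESeq2 adjusted p = 0.0146 for Adrb3 and 0.111 for G0s2). Of the 26 genes 18 had positive and 8 negative estimates, so this pair does not stand for the list. Angptl8, listed as Gm6484, a feeding-induced protein that restrains lipoprotein lipase, had 6.71 CPM at ZT02 and 16.5 and 9.37 CPM at ZT06, against 69.6 CPM at ZT18 and 50.6 and 34.0 CPM at ZT22. Its morning libraries were all low (-2.24 ± 0.61 SE, edgeR adjusted p = 0.203).

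Cpt1a, which admits fatty acids to mitochondria, had 102 CPM at ZT02 and 102 and 101 CPM at ZT06, against 60.7 CPM at ZT18 and 75.4 and 68.1 CPM at ZT22 (0.58 ± 0.12 SE, edgeR adjusted p = 0.0992). Of 22 fatty acid oxidation genes none passed with edgeR (3 at an unadjusted p under 0.05, 1 with DESeq2). Of them 2 lay wholly above and 1 wholly below, beside 6% and 4.8% of all genes. In 19 the estimate was negative, and the median was -0.18 (-0.055 without the second-numbered ZT22 library). Among the other storage lists, triglyceride assembly (19 genes) had a median of -0.16, fatty acid uptake and binding (16 genes) -0.11 and lipid droplet proteins (15 genes) -0.22, with no gene past the threshold with edgeR (1, 1 and 0 with DESeq2). Without the second-numbered ZT22 library these medians were -0.050, -0.0050 and -0.14. Of 17 adipokines none passed with edgeR (2 with DESeq2): Retnla, a secreted resistin-like protein, had 256 CPM at ZT02 and 244 and 174 CPM at ZT06, against 155 CPM at ZT18 and 116 and 132 CPM at ZT22, and the satiety hormone Lep, chosen here after its values were seen, ranged from 394 to 1183 CPM in the morning and from 439 to 972 CPM late at night.

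**Figure D5:**
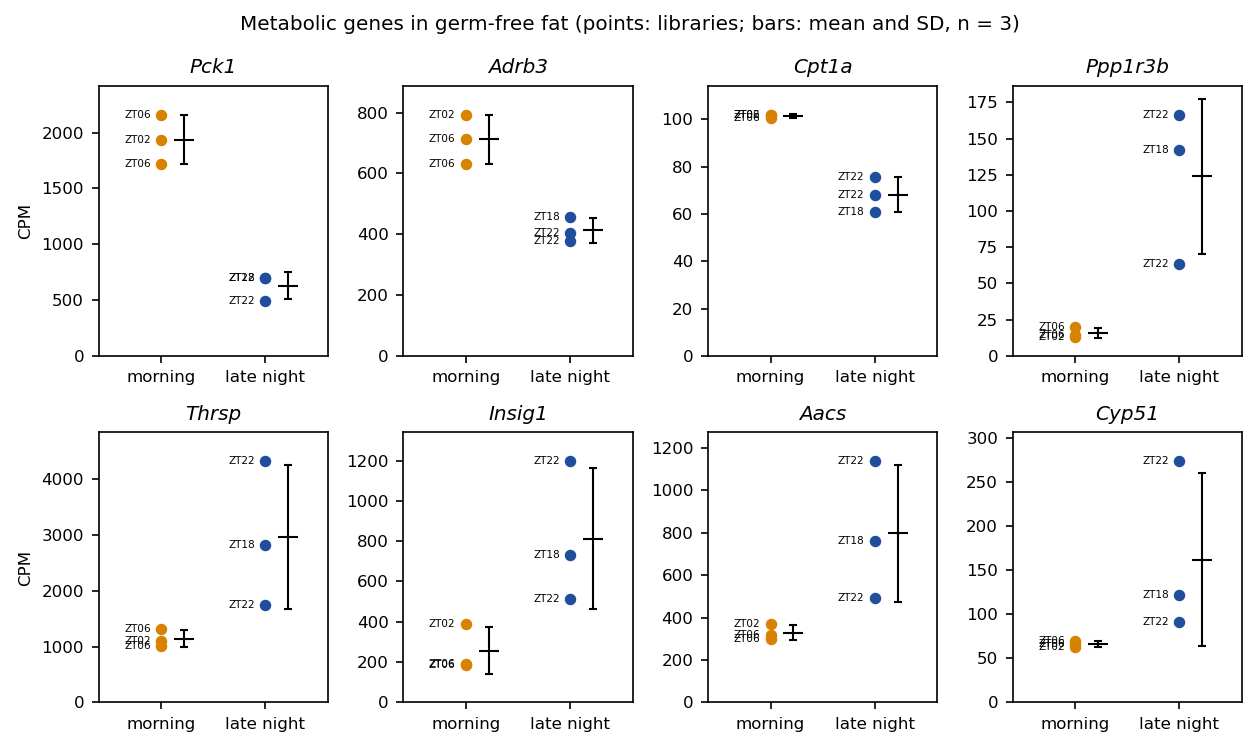
CPM of 8 metabolic genes in the 3 morning (left) and 3 late-night (right) germ-free libraries, 1 labelled point per library, with the mean and SD beside them (n = 3). Pck1, Adrb3 and Cpt1a are higher and Ppp1r3b, Thrsp, Insig1, Aacs and Cyp51 lower in all 3 morning libraries, and none passed an adjusted p of 0.05 with edgeR, while DESeq2 gave each a lower adjusted p (0.000272 to 0.0253).

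Of 22 insulin signalling genes none passed with edgeR (1 with DESeq2, Pdpk1), 1 lay wholly above and 2 wholly below, beside 6% and 4.8% of all genes. Pik3r1, the regulatory subunit of PI 3-kinase, had 924 CPM at ZT02 and 739 and 635 CPM at ZT06, against 1371 CPM at ZT18 and 1156 and 1135 CPM at ZT22, and Pdpk1, the kinase that activates AKT, ranged from 157 to 182 CPM in the morning and from 130 to 150 CPM late at night. In 6 of 22 genes of the glucocorticoid and fasting response every morning library lay below late night, beside 4.8% of all genes. None lay above (6% of all genes), none passed with edgeR or DESeq2, and the median was -0.31. Cdkn1a, the cyclin-dependent kinase inhibitor p21, had 12.1 CPM at ZT02 and 6.99 and 3.35 CPM at ZT06, against 15.1 CPM at ZT18 and 23.3 and 35.7 CPM at ZT22 (-1.72 ± 0.59 SE, edgeR adjusted p = 0.295). Both ZT22 libraries were above the ZT18 one, and both ZT06 libraries below the ZT02 one.

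Immediate early genes had the reverse sign. With edgeR none of 26 passed (7 at an unadjusted p under 0.05, 3 with DESeq2). Of them 10 lay wholly above late night and none below, beside 6% and 4.8% of all genes, and the median log2 fold change was 0.44. Junb, a subunit of the AP-1 factor, had 22.1 CPM at ZT02 and 20.6 and 28.5 CPM at ZT06, against 14.04 CPM at ZT18 and 13.4 and 11.1 CPM at ZT22 (0.89 ± 0.25 SE, edgeR adjusted p = 0.213). Cyr61, a matricellular protein and YAP target, had 28.2 CPM at ZT02 and 19.5 and 21.7 CPM at ZT06, against 9.90 CPM at ZT18 and 15.6 and 10.8 CPM at ZT22 (0.94 ± 0.24 SE).

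With edgeR none of 28 extracellular matrix genes passed (8 at an unadjusted p under 0.05, none with DESeq2). Of them 6 lay wholly above and none below, beside 6% and 4.8% of all genes, and the median was 0.32. Fbn1, which encodes fibrillin-1 and the hormone asprosin, had 856 CPM at ZT02 and 425 and 507 CPM at ZT06, against 291 CPM at ZT18 and 385 and 266 CPM at ZT22 (0.92 ± 0.29 SE, edgeR adjusted p = 0.257). The ZT02 library was the highest of the 6 in 21 of 28 matrix genes, 17 of 23 macrophage genes and 14 of 26 immediate early genes, beside 18.8% of all genes. That library also had the highest sums of mesothelial (853 CPM, against 399 to 596 CPM in the other 5), B and plasma cell (1241 CPM, against 328 to 561 CPM) and macrophage markers (2338 CPM without Lpl, against 1346 to 1843 CPM). Without it the medians were 0.15 for matrix, 0.14 for macrophage, 0.30 for immediate early, 0.038 for mesothelial and 0.041 for progenitor and fibroblast genes. The part of these cell types in the result was not tested. Over the marker lists, the median was 0.36 for macrophages (23 genes, 3 wholly above), 0.41 for mesothelium (14 genes, 2 above), 0.27 for progenitors and fibroblasts (17 genes, 3 above), 0.06 for fat cell identity (18 genes, 2 above), 0.07 for endothelium (15 genes, none) and -0.45 for smooth muscle and pericytes (12 genes, 1 above). With edgeR no gene of these 6 lists passed, and DESeq2 called 1 fat cell identity and 2 smooth muscle genes. The smooth muscle median was 0.049 without the second-numbered ZT22 library. The first-numbered ZT22 library was the lowest in 17 of 18 fat cell identity and 13 of 15 endothelial genes, beside 20% of all genes. Without the 2 libraries high in duct markers, the medians of fat cell identity and endothelium were -0.059 and -0.11.

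With edgeR, of the 43 lists only that of clock activators and repressors had a member past the threshold. Ribosome biogenesis (22 genes, 3 wholly below) had a median of -0.14, heat shock and cold-inducible genes (21 genes, 1 above and 3 below) -0.17, cell cycle genes (24 genes, 3 below) -0.05, interferon-stimulated genes (23 genes, 1 above and 1 below) 0.07, and genes of the unfolded protein and amino acid stress response (26 genes, 2 above and 1 below) 0.02. Over all genes 6% lay wholly above and 4.8% wholly below. DESeq2 called 1 ribosome biogenesis gene and 1 of the stress response. Asns, the asparagine synthetase induced by amino acid shortage, ranged from 106 to 126 CPM in the morning and from 124 to 216 CPM late at night.

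The same contrast was set beside that of conventionally raised mice, with which it shares no library, to ask whether the germ-free change differed. In convR fat 1 gene passed (0.00497%, with 9.64% at an unadjusted p under 0.05), the myo-inositol transporter gene Slc2a13, named for that reason. It ranged from 33.2 to 39.8 CPM in the morning and from 30.1 to 34.5 CPM late at night in germ-free fat, and averaged 61.3 ± 5.06 CPM in the morning and 37.3 ± 4.59 CPM late at night in convR fat (SD, n = 4 each). For no gene did the change differ between GF and convR past the threshold with edgeR, while 2502 had an unadjusted p under 0.05 (12.4%) and DESeq2 called 416 of 13850 (3%). B230312A22Rik ranked ahead by the p of that difference (3.68e-06, edgeR adjusted p = 0.074) but was passed over as a placeholder symbol. The 6 genes named by rank after it were Usp35, Phldb1, Rock2, Dsn1, H6pd and Cyp51, each with an edgeR adjusted p of 0.0826. Usp35, a deubiquitinase gene, had 31.0 CPM at ZT02 and 25.3 and 27.5 CPM at ZT06, against 14.4 CPM at ZT18 and 14.7 and 11.4 CPM at ZT22 in germ-free fat, and 24.3 ± 6.22 CPM in the morning and 34.8 ± 6.26 CPM late at night in convR fat (SD, n = 4 each). The log2 fold change was 1.05 in GF and -0.52 in convR, a difference of 1.57 ± 0.28 (SE). Cyp51 averaged 73.9 ± 20.0 CPM in the morning and 33.7 ± 5.66 CPM late at night in convR fat (SD, n = 4 each), so its fold change of 1.13 had the sign opposite to the germ-free -1.29, a difference of -2.43 ± 0.45 (SE).

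The list medians of lipid synthesis differed in sign between the arms. For fatty acid synthesis the median log2 fold change was -0.84 in GF and 0.88 in convR, the second with 10 of 19 genes wholly above late night, and for cholesterol synthesis -0.53 in GF and 0.65 in convR, the second with 14 of 23 wholly above, where 2.44% of all genes were in convR and 3.27% lay wholly below. The germ-free medians leaned on 1 library: without the second-numbered germ-free ZT22 library they were -0.13 and -0.33. At an unadjusted p under 0.05 the change differed between the arms in 16 of 19 and 21 of 23 genes, beside 12.4% of all genes. None passed after adjustment with edgeR, while DESeq2 called 5 of 19 and 13 of 23, beside 3% of all genes to which it gave an adjusted p. Ppp1r3b averaged 21.1 ± 19.5 CPM in the morning and 11.3 ± 4.92 CPM late at night in convR fat (SD, n = 4 each), and its fold change differed by -3.87 ± 0.75 (SE, edgeR adjusted p = 0.0826). Pck1 averaged 1363 ± 941 CPM in the morning and 1773 ± 414 CPM late at night in convR fat (SD, n = 4 each), a difference between the arms of 2.00 ± 0.62 (SE, edgeR adjusted p = 0.195). The clock genes were called in neither direction in convR, and their changes had no call for a difference: Cry1 had a log2 fold change of -1.84 in GF and -1.21 in convR (difference -0.63 ± 0.42 SE), and Nr1d1 of 3.35 in GF and 1.80 in convR (difference 1.55 ± 0.92 SE).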

How the data were processed

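Stranded, ribosomal RNA-depleted libraries of epididymal fat were sequenced in paired ends, per the labels' protocols. Reads were aligned with STAR 2.4.0i to mm10, per the submitters' processing notes, with counter, annotation and strand setting not given in the sources used here. Deposited values are whole-number counts per gene and library, 24388294 to 48348181 per library, made by the authors and not normalized.

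Of 38087 genes, 20101 passed filterByExpr and were tested with edgeR 4.0.16 (R 4.3.3; TMM, glmQLFit, glmQLFTest) in 1 fit of 21 libraries in 6 groups, arm by window. The contrast was germ-free morning minus late night, with Benjamini-Hochberg adjustment over all genes and a threshold of 0.05. SE is the log2 fold change over the square root of F, and CPM are TMM-scaled. DESeq2 1.42.0, other normalization, filters and sets of libraries were alternatives. The test was also run on simulated counts with equal group means apart from planted changes. Those counts hold no uneven neighbouring tissue and no mixed time points, so they cannot vouch for the calls made here. Gene positions and symbols came from the annotation table (36308 of 38087 genes matched), promoters from RefSeq.

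Members and lists were chosen with earlier results of these data known. Named genes were the 12 highest and 12 lowest past the threshold (average log2 CPM 1 or more), skipping placeholder models and pseudogenes, all clock activators and repressors, up to 4 called and 2 not-called members of each other list by smallest p, and the 6 smallest p for the difference between arms. Lists are described by counts and medians, with no test. Results for some genes are not reported here.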

Additional observations from a re-analysis of the deposited data

Results flagged for a closer look

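In 1 of 24 groups of 4 conventional libraries (12 genes, morning and late night), a single library lay far from the others: Ppp1r3b, the glycogen-targeting subunit of protein phosphatase 1, had 50.1 CPM in the second-numbered ZT02 library of conventional morning fat, where the group averaged 21.1 ± 19.5 CPM (SD, n = 4). Chance flags about 5 percent of such groups. The germ-free windows hold 3 libraries each and were not examined in this way.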

How the results depend on the processing

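The count of genes past the threshold in germ-free fat, 11 higher and 4 lower in the morning, depended on the setting. It was 11 and 4 with RLE size factors, 0 and 0 with no filter on low counts, in the 9 or the 6 germ-free libraries alone, with libraries numbered 2 only and with the replicate block within each arm, 146 and 101 with DESeq2, 10 and 7 with 12 groups of arm by time point, 1 and 2 without the 2 libraries high in duct markers, 78 and 31 for ZT06 against ZT22, and 5 and 1 with exon length as a covariate. Leaving out 1 library at a time gave 0 to 17 higher and 0 to 57 lower. All 15 genes kept their direction wherever a setting gave them a value. In conventional fat, 1 higher and 0 lower became 18 and 96 with DESeq2, 3 and 10 with 12 groups, and 0 and 0 with the replicate block, ZT06 against ZT22, libraries numbered 2 only or exon length. The change differed between the arms in 0 genes, against 1 with RLE, with ZT06 against ZT22, with libraries numbered 2 only and with exon length, 416 with DESeq2, 26 with 12 groups, and 0 to 71 when 1 library was left out (55 without the first-numbered ZT22 library, 71 without the ZT18 library). Deviations of same-numbered morning and late-night libraries correlated at -0.48 to 0.49, and some libraries were closest to one with another number. Those deviations were taken from window means that mix time points, so they cannot settle whether the numbers pair the libraries. The direction reversed in a few genes that had not passed. Log2 fold changes became -0.22 for Per1 with 12 groups and -0.029 without the duct-high libraries, 0.46 for Per2, 0.047 for Cry2, -0.10 for Cldn5 and -0.43 for Svs4 with ZT06 against ZT22, 0.21 for Dnahc3 and 2.57 for Hydin with libraries numbered 2 only, 0.26 for Hydin with the replicate block, and without the duct-high libraries 0.39 for Hydin, 0.040 for Tat, 0.59 for Rnase10 and 0.77 for Cela2a. With 1 library left out, values ranged from -0.065 to 0.70 for Per1, -0.83 to 0.13 for Per2, -0.22 to 0.012 for Cry2, -2.83 to 2.20 for Hydin, -6.20 to 0.30 for Rnase10 and -2.94 to 0.75 for Cela2a. The cause was not tested. Depth limits the lowest genes, where a single count is 0.0207 to 0.0410 CPM.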
